A study of Rattus norvegicus with 24 samples.

Results

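Cxcl1, Cxcl2 and Cxcl3 encode 3 chemokines of the CXC family, and Cxcr1 and Cxcr2 encode the paired receptors through which such ligands call neutrophils out of the blood. These 5 genes, of the 29539 in the count table, were followed across 24 libraries of rat (Rattus norvegicus) brain RNA. They were chosen by name, with their changes in earlier results of these data known, so their levels and fold changes below are a description and carry no test. Of the 5 genes, 4 passed the filter on low counts, which 14421 genes passed in all, and Cxcr1 did not.

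The libraries fall into 3 groups of 8, labelled Normal Control, Vehicle and SKF. The study set a D1-like dopamine receptor agonist against stab wound injury of the brain. SKF is read as SKF-81297, the agonist given into the peritoneum in 1 dose a day for 3 days, with the first dose 1 h after injury. Vehicle has no further label and is taken to be stab-wounded brain that received only the carrier. Normal Control is not called sham-operated in the labels, so the wound, the surgery, the carrier and the piece of tissue cannot be told apart in Vehicle against Normal Control. The region, the time of collection and whether the 8 samples are 8 animals are not given, so the p-values measure spread between samples. Summed markers of neurons, astrocytes, oligodendrocytes and microglia were above 0 in every library, a loose check that cannot settle the tissue or the region. Summed neuron markers ran from 2499 to 4813 CPM, the count as a share of the library's scaled total times 1e+06. Summed skeletal muscle markers reached 1964 CPM in 1 Normal Control library, where the group's median was 9.53 CPM.

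CXC chemokines that carry the ELR motif (glutamate, leucine, arginine) before their first cysteines are made by astrocytes, endothelium and myeloid cells when interleukin-1, tumour necrosis factor or tissue damage activates NF-kB. They stick to the vessel wall and bind Cxcr2, and in part Cxcr1, on neutrophils. Through the inhibitory G protein these receptors drive integrin activation and directed crawling, and in brain injury they are best known for the early entry of neutrophils through the damaged barrier. Their mRNAs are short-lived, because decay factors such as Zfp36 act on AU-rich elements.

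The sequences just upstream are shown because the ligand promoters hold matches to an NF-kB binding form and the window of Cxcr2 holds none. The 150 bases before the annotated start are given 5′ to 3′ on the gene's strand, from RefSeq build GRCr8. Capitals mark matches to the NF-kB form GGGNNTTTCC on either strand. The windows are chr14:17479322-17479471 (minus strand) for Cxcl1, chr14:17467256-17467405 (minus) for Cxcl2, chr14:17596418-17596567 (minus) for Cxcl6, a further ELR ligand, and chr9:83178495-83178644 (plus) for Cxcr2.
Cxcl1: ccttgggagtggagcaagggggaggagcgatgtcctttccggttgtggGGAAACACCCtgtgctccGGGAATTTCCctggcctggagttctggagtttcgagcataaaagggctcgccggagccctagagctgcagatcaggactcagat
Cxcl2: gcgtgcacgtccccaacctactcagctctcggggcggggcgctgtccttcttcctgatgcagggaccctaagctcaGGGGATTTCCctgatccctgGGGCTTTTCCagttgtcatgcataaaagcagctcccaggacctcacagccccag
Cxcl6: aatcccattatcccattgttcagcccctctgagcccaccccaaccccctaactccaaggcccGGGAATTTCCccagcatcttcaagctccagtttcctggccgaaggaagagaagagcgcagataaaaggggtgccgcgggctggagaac
Cxcr2: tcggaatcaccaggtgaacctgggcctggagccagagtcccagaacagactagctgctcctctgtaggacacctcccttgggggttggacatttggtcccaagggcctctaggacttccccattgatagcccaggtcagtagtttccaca

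Cxcl1 held 2 matches, GGAAACACCC on the opposite strand at -102 to -93 and GGGAATTTCC at -84 to -75, counted from the start. Cxcl2 held 2, GGGGATTTCC at -74 to -65 and GGGCTTTTCC at -54 to -45. Cxcl6 held 1, GGGAATTTCC at -88 to -79, inside a run of 13 bases (ccgggaatttccc) that it shares with Cxcl1. Cxcr1, Cxcr2 and the platelet ligand gene Ppbp held 0 in the 250 bases searched. Of 33469 RefSeq promoters of the same length, 435 (1.3%) held the form. The form was chosen after these sequences were seen, so that share only describes how common it is. The AP-1 form TGANTCA, which 2122 promoters (6.34%) held, had 0 matches in all 6 genes. Cxcl3 was not among the 4 of 5 genes matched to the promoter table. These matches are letters in a window, and binding was not measured.

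The 3 ligand genes had no counts or a single count in Normal Control and at least 26 counts in every wounded library. Cxcl1 had 1 count in Normal Control 5 and 0 counts in the other 7 libraries. In Vehicle its counts ran from 33 through a median of 92.5 to 208, and in SKF from 56 through 68.5 to 147. Every Vehicle and every SKF library lay above every Normal Control library. The ratio of summed counts, scaled by library totals, was 878 for Vehicle to Normal Control (95% exact counting interval 157 to 3.473e+04) and 641 for SKF to Normal Control. The interval is wide because 818 counts stand against 1, and it covers counting error only, without the spread between samples.

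Cxcl2, which codes for a macrophage inflammatory protein, had 0 counts in all 8 Normal Control libraries. Its counts ran from 26 through a median of 198.5 to 1498 in Vehicle and from 51 through 103 to 212 in SKF. A count of 0 allows up to 3 counts per library, a mean of 0.288 CPM in Normal Control. Against that floor Cxcl2 was at least 34.9-fold higher in SKF, and in Vehicle at least 116-fold. Vehicle 1, at 1498 counts, carried much of the mean, and without it the bound for Vehicle was 57.1-fold. Cxcl3, a close paralog of Cxcl1 and Cxcl2, also had 0 counts in all 8 Normal Control libraries. Its counts ran from 61 through 318 to 816 in Vehicle and from 59 through 146.5 to 357 in SKF, at least 117-fold above that floor in Vehicle and 55.2-fold above it in SKF. The bound for Vehicle was 92.6-fold without Vehicle 1.

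Because the tissue was sequenced in bulk, more cells of a type and more RNA per cell cannot be told apart in these levels. The 3 ligands are close paralogs, as are the 2 receptors, and the way the authors' counting treated reads that match several genes is not given here, so the split among paralogs is uncertain.

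The fitted log2 fold changes (edgeR, ± SE, n = 8 per group) of Vehicle over Normal Control were 8.72 ± 0.64 for Cxcl1, 11.49 ± 1.72 for Cxcl2 and 11.50 ± 1.29 for Cxcl3. They depend on the small count added where a group has 0, and are no bounds. With limma on log2(TPM + 1) they were 4.51, 5.46 and 5.47. Without Normal Control 5, the library with its single count, the value for Cxcl1 was 9.74, and without Vehicle 1 that for Cxcl2 was 10.47. By size of fitted fold change Cxcl3 ranked 1, Cxcl2 ranked 2, Cxcl1 ranked 9 and Cxcr2 ranked 31 among the 14421 genes tested. All 4 tested members passed the edgeR threshold in this comparison, where 54% of all genes tested did (26.9% higher, 27.1% lower), and every Vehicle library lay above every Normal Control library for all 4, as for 11.7% of genes. The members were chosen on this contrast, so nothing is read from those counts.

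**Figure D1:**
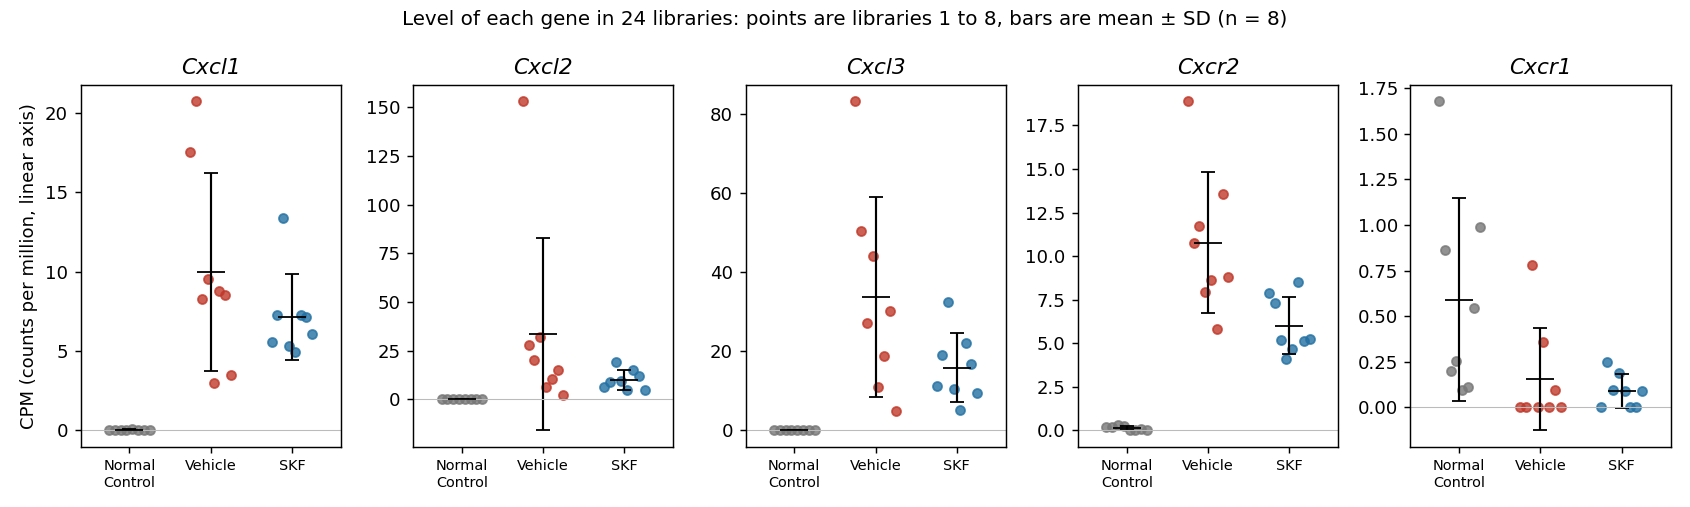
Level of each gene in CPM (vertical axis, linear, its own scale per gene) in the Normal Control, Vehicle and SKF libraries. Points are libraries 1 to 8 from left to right and bars are mean ± SD (n = 8). The ligands and Cxcr2 sit at or near 0 in Normal Control and above it in all 16 other libraries, Vehicle 1 stands at 152.9 CPM for Cxcl2, and Cxcr1 is highest in Normal Control.

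The receptors differed in where Normal Control stood: Cxcr2 was lowest there, and the mean of Cxcr1 was highest there, with overlapping groups. Cxcr2, the receptor that all ELR ligands bind, had from 0 to 3 counts in the Normal Control libraries, 3 of them at 0. Its counts ran from 54 through a median of 110 to 185 in Vehicle and from 44 through 57.5 to 106 in SKF. Every wounded library was far above every Normal Control library. Mean Cxcr2 was 10.8 ± 4.06 CPM (SD, n = 8) in Vehicle, 6.01 ± 1.64 CPM in SKF and 0.128 ± 0.121 CPM in Normal Control. The ratio of summed counts, scaled by library totals, was 89.1 for Vehicle to Normal Control (95% exact counting interval 49.6 to 179.2, counting error only). The fitted log2 fold change was 6.24 ± 0.36 (SE) in Vehicle and 5.40 ± 0.37 in SKF, each against the same Normal Control libraries. It was 2.63 and 1.97 with limma on log2(TPM + 1).

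Cxcr1, the receptor with the narrower choice of ligands, was sparse everywhere. It had from 1 through a median of 4.5 to 17 counts in Normal Control, from 0 to 9 in Vehicle with 5 libraries at 0, and from 0 to 3 in SKF with 3 libraries at 0. The 3 groups overlapped. Normal Control held 49 counts in sum, Vehicle 14 and SKF 8. Scaled by library totals, the ratio was 0.307 for Vehicle to Normal Control (95% exact counting interval 0.156 to 0.565) and 0.164 for SKF to Normal Control (0.0670 to 0.349). These intervals cover counting error only, without the spread between samples. Fitted without the filter, the log2 fold changes were -1.80 ± 0.74 (SE) and -2.58 ± 0.80. Of the 14 Vehicle counts, 9 were in Vehicle 3. Vehicle and SKF were both under the floor of 3 counts per library on average, so no fold is given between them. The reading rests on few counts and the gene passed no filter.

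Levels can be set against each other only per length, in TPM, the authors' length-scaled unit whose values sum to 1e+06 in each library. In Vehicle the means were 84.9 ± 127 TPM (SD, n = 8) for Cxcl2, 58.1 ± 44.2 for Cxcl3, 26.6 ± 16.4 for Cxcl1, 5.90 ± 2.28 for Cxcr2 and 0.156 ± 0.285 for Cxcr1. In SKF they were 26.8 ± 14.6 for Cxcl3, 24.8 ± 12.7 for Cxcl2, 18.7 ± 6.69 for Cxcl1, 3.25 ± 0.996 for Cxcr2 and 0.0870 ± 0.0915 for Cxcr1. Cxcl2 and Cxcl3, neighbours in that order, lay within each other's spread in both groups, and Cxcl3 was above Cxcl2 in 5 of 8 Vehicle and 5 of 8 SKF libraries. Cxcl1 was the lowest ligand in 13 of the 16 wounded libraries. Every ligand was above Cxcr2 in all 16, and Cxcr2 above Cxcr1 in all 16. In Normal Control the order of the receptors was the other way round, with Cxcr1 above Cxcr2 in 8 of 8 libraries (means 0.544 ± 0.510 and 0.0649 ± 0.0611 TPM). The share of Cxcr2 in the summed receptor TPM was 97.6% ± 4.23 (SD, n = 8) in Vehicle, 97.1% ± 2.87 in SKF and 13.1% ± 17.3 in Normal Control.

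The summed ligand level varied widely among the Vehicle libraries. It ran from 22.6 through a median of 116 to 588 TPM in Vehicle and from 34.4 through 64.3 to 133 TPM in SKF, so the SKF libraries lay inside the range of the Vehicle libraries. The lowest library of all 16 was Vehicle 8 and the highest Vehicle 1. The make-up of the sum was steadier than its size. Cxcl3 supplied 38.9% ± 6.34 (SD, n = 8) in Vehicle and 36.9% ± 5.47 in SKF, Cxcl2 39.2% ± 13.0 and 34.6% ± 5.41, and Cxcl1 21.8% ± 9.99 and 28.5% ± 6.45. Vehicle 1 stood apart, with 66.8% from Cxcl2 and 8.19% from Cxcl1. In Vehicle 8 the order was reversed, with 40.9% from Cxcl1 and 22.6% from Cxcl2.

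**Figure D2:**
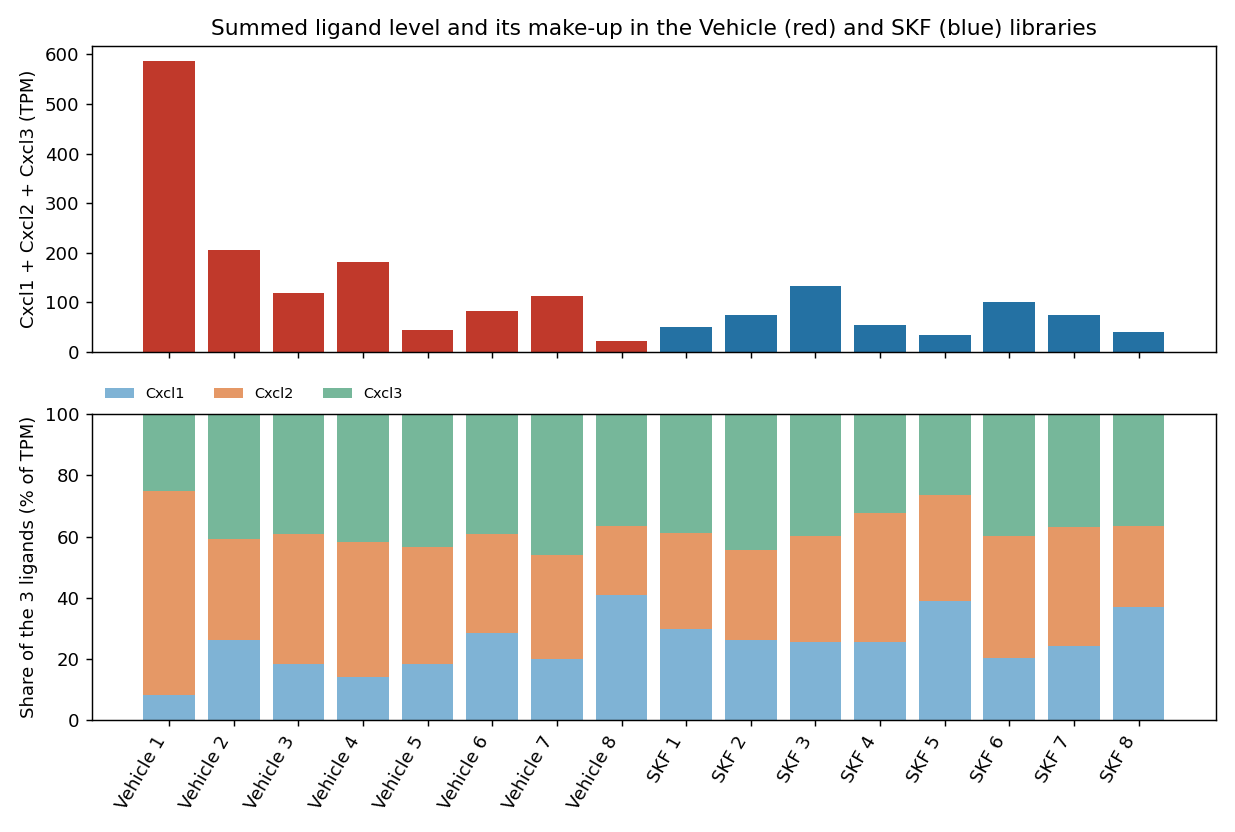
Upper bars give the summed level of Cxcl1, Cxcl2 and Cxcl3 (TPM) in each Vehicle (red) and SKF (blue) library, and lower bars the percentage of that sum from each ligand. The sum runs from 22.6 to 588 TPM in Vehicle, and Cxcl2 reaches 66.8% of it in Vehicle 1.

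SKF was set against Vehicle to ask whether the agonist altered the response to the wound. Means of all 4 tested members were lower in SKF, and no gene in the table passed the test. In CPM, Cxcl1 averaged 9.97 ± 6.23 (SD, n = 8) in Vehicle and 7.13 ± 2.70 in SKF, or 71.4% of the Vehicle mean. Cxcl2 averaged 33.5 ± 49.3 and 10.0484 ± 5.23, or 30.007%, and 61.2% without Vehicle 1. Cxcl3 averaged 33.7 ± 25.3 and 15.9 ± 8.75, or 47.1%, and 59.6% without Vehicle 1. The SKF median was 76.6% of the Vehicle median for Cxcl1, 50.9% for Cxcl2 and 49.1% for Cxcl3. For each ligand the Vehicle median exceeded 7 of 8 SKF values, but 0 of 8 were under every Vehicle value, so the groups overlapped throughout.

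Cxcr2 showed the tightest of these differences. Its SKF mean was 55.8% of the Vehicle mean, 62.5% without Vehicle 1, and its SKF median 53.3% of the Vehicle median. Each of the 8 SKF values was under the Vehicle median, and 5 were under every Vehicle value (1.19% of all genes tested had at least 5 there), yet the groups still overlapped, from 5.85 to 18.9 CPM in Vehicle against 4.11 to 8.49 CPM in SKF. The fitted log2 fold changes of SKF over Vehicle (edgeR, ± SE) were -0.48 ± 0.30 for Cxcl1, -1.73 ± 0.70 for Cxcl2, -1.08 ± 0.50 for Cxcl3 and -0.84 ± 0.22 for Cxcr2. For Cxcl2 the value was -0.71 without Vehicle 1 and -0.84 with limma voom. By the edgeR threshold 0 of the 4 members were called and 0% of all genes tested were, while 715 genes (4.96%) had an unadjusted p under 0.05 and DESeq2 called 6 genes. Nothing is read from the members' counts, since they were chosen on this contrast. Over all genes tested, 49.5% had a negative value.

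The SKF libraries, too, stood far above Normal Control. The fitted log2 fold changes were 8.24 ± 0.66 (SE) for Cxcl1, 9.76 ± 1.96 for Cxcl2 and 10.42 ± 1.39 for Cxcl3, where 50.2% of all genes tested passed (25.5% higher, 24.7% lower). Every SKF library was above every Normal Control library for all 4 tested members, as for 11.5% of genes. The 3 comparisons share libraries, so their values are set side by side only.

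The neutrophil markers as a sum, like Cxcr2, were higher in Vehicle than in Normal Control. Their summed level over 15 genes ran from 4.88 to 10.0227 CPM in Normal Control, from 62.5 to 162 in Vehicle and from 44.3 to 68.3 in SKF, with Ltf at 0 in all 3 groups and Elane and Trem1 at 0 in Normal Control as well. Of the 15, 7 passed the filter on low counts, and Trem1 could do so only through the wounded libraries. All 7 were called higher in Vehicle than in Normal Control (median log2 fold change 4.95), beside 26.9% of all genes tested. The filter favours genes that are high in some group, so nothing is read from that count. In SKF against Vehicle 0 were called, and all 7 values were negative (median -0.57), beside 49.5% of all genes tested. Markers averaging under 1 CPM in each group were mixed. Ngp was lower in Vehicle (0.0334 CPM) than in Normal Control (0.110). Fpr1 and Cd177 were higher in SKF (0.976 and 0.531) than in Vehicle (0.797 and 0.468), and Camp, Elane, Mpo and Padi4 lower. Mmp9, a large part of the sum, averaged 14.6 in Vehicle and 14.1 in SKF. S100a9, part of the calprotectin complex of neutrophils and picked after its values were seen, averaged 20.6 ± 8.72 CPM (SD, n = 8) in Vehicle and 10.8 ± 2.64 in SKF. Cxcr2 per 1000 CPM of summed neutrophil markers was 130 ± 24.6 in Vehicle and 104 ± 21.9 in SKF, with overlapping libraries. In Normal Control it was 16.0 ± 15.9, from at most 3 counts of Cxcr2 per library. Summed macrophage markers ran from 27.6 to 36.5 CPM in Normal Control, from 202 to 315 in Vehicle and from 157 to 294 in SKF, where the last ranges overlapped. Of 8 macrophage markers 7 were tested, and all 7 were called higher in Vehicle than in Normal Control, beside the same 26.9% of all genes. In SKF against Vehicle 0 macrophage markers were called (median -0.27). The part of either cell type in the member levels was not tested.

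Within the groups the 3 ligands varied together from library to library. Correlations were taken over the 16 Vehicle and SKF libraries on log2 CPM after each group was centred on its mean, with two-sided permutation p-values from 100000 permutations within groups, adjusted over the 6 pairs. Cxcl2 and Cxcl3 had Pearson r = 0.938 (p = 1e-05, the smallest the permutations can give, adjusted p = 6e-05) and Spearman rho = 0.941 (adjusted p = 6e-05). Without the 2 libraries farthest from the median of Cxcl2, r was 0.926. Cxcl1 and Cxcl3 had r = 0.888 (p = 4e-05, permutation adjusted p = 0.00012), rho = 0.924 (adjusted p = 6e-05) and r = 0.821 without 2 libraries. Cxcl1 and Cxcl2 had r = 0.823 (p = 0.0009, permutation adjusted p = 0.0018), rho = 0.844 (adjusted p = 0.00042) and r = 0.698 without 2 libraries. The relations held in each group: within Vehicle r was 0.965, 0.901 and 0.83 for these pairs, and within SKF 0.898, 0.877 and 0.791. How reads split among the paralogs was not tested.

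Cxcr2 passed with none of the ligands. Its r was 0.35 with Cxcl1 (p = 0.256, permutation adjusted p = 0.256; rho 0.359, adjusted p = 0.217), 0.494 with Cxcl2 (p = 0.0896, adjusted p = 0.108; rho 0.344, adjusted p = 0.217) and 0.495 with Cxcl3 (p = 0.0806, adjusted p = 0.108; rho 0.488, adjusted p = 0.105). Without Vehicle 1 and Vehicle 8 the value with Cxcl2 was 0.216. The difference between the ligand pairs and the receptor pairs was not tested.

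The summed neutrophil markers, which do not hold the members, tracked all 4. Over 8 such relations, r with the neutrophil sum was 0.766 for Cxcr2 (p = 0.00116, permutation adjusted p = 0.00704; rho 0.688, adjusted p = 0.0168). It was 0.772 for Cxcl2 (p = 0.00176, permutation adjusted p = 0.00704; rho 0.632, adjusted p = 0.0175). It was 0.706 for Cxcl3 (p = 0.00622, permutation adjusted p = 0.0124; rho 0.718, adjusted p = 0.015) and 0.6 for Cxcl1 (p = 0.0274, adjusted p = 0.0439; rho 0.615, adjusted p = 0.0176). Vehicle 1 had the highest neutrophil sum. Without Vehicle 1 and SKF 4 the values were 0.566, 0.631, 0.689 and 0.508 in that order, and inside SKF 0.619, 0.562, 0.744 and 0.614. How many of all genes track a marker sum this closely was not examined, here or for the macrophage markers below. No link particular to the members is read from these values.

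The summed macrophage markers tracked Cxcr2 (r = 0.675, p = 0.00329, permutation adjusted p = 0.00877; rho 0.668, adjusted p = 0.0175; 0.531 without Vehicle 1 and SKF 1). They did not pass with any ligand, at r = 0.063 for Cxcl1, 0.129 for Cxcl2 and 0.088 for Cxcl3 (permutation adjusted p = 0.81 each, raw p = 0.81, 0.617 and 0.737; rho -0.059, -0.076 and 0.003, adjusted p = 0.953, 0.953 and 0.996). For the ligands the value was positive within Vehicle (0.365, 0.473 and 0.388) and negative within SKF (-0.42, -0.447 and -0.264), with 8 libraries each. That difference between groups was not tested.

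**Figure D3:**
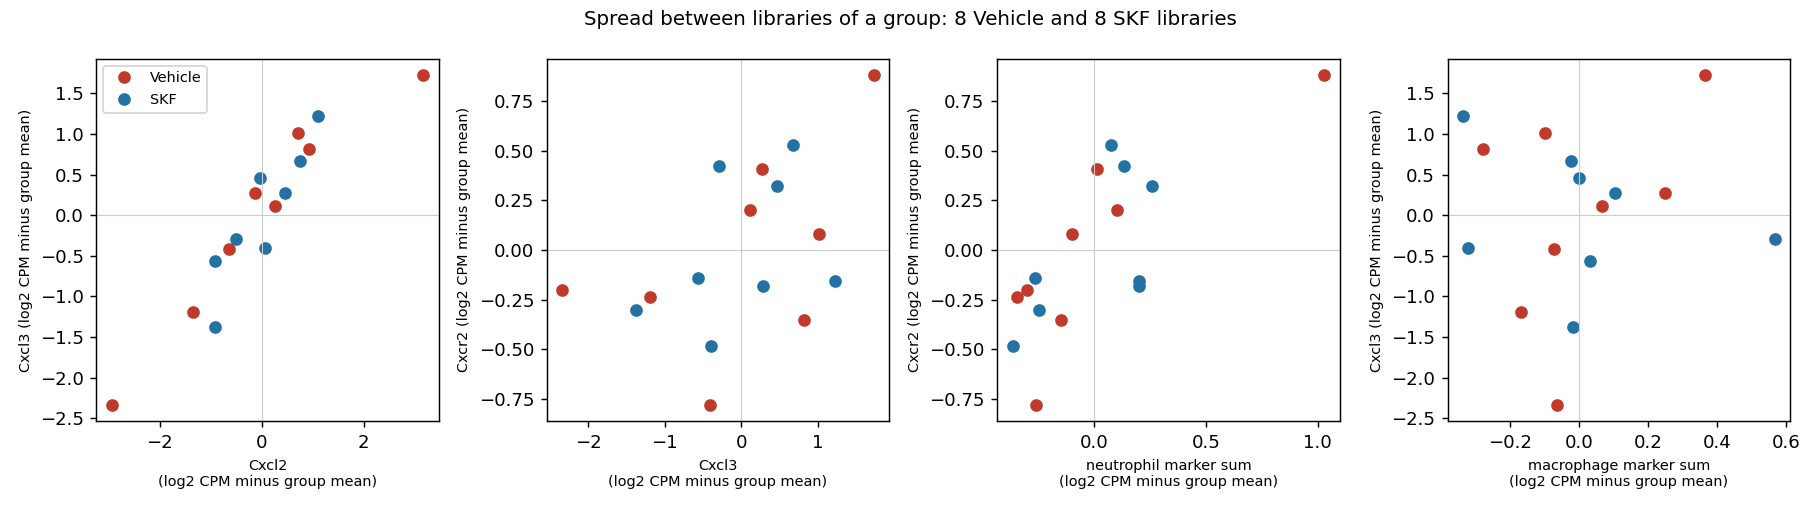
Each point is a Vehicle (red) or SKF (blue) library, with both axes in log2 CPM minus the mean of its group. Cxcl2 and Cxcl3 fall along a line (r = 0.938), Cxcr2 spreads more widely against Cxcl3 (r = 0.495) and follows the neutrophil marker sum (r = 0.766, with Vehicle 1 far to the right), and Cxcl3 shows little relation to the macrophage marker sum (r = 0.088).

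The genes whose pattern over the same 16 libraries was most like each member are given by Pearson r, among 12460 candidates and with no test. For Cxcl2 they were Nos2, the inducible nitric oxide synthase (0.944), the chemokine Ccl3 (0.939), Cxcl3 (0.938), G0s2, an inhibitor of fat breakdown (0.91), and the niacin receptor Hcar2 (0.896). For Cxcl3 they were Cxcl2 (0.938), Nos2 (0.913), the cell cycle inhibitor Cdkn1a (0.901), Trem1, a receptor of neutrophils and monocytes that is also in the neutrophil list (0.898), and Dnajc11 (0.896). For Cxcl1 they were Cdkn1a (0.916), Cxcl3 (0.888), the pentraxin Ptx3 (0.874), Ranbp1, a nuclear transport factor (0.873), and the cytokine signalling inhibitor Socs3 (0.873). For Cxcr2 they were the interleukin-1 receptor Il1r1 (0.864), the tumour necrosis factor receptor Tnfrsf1b (0.853), the signalling adaptor Traf6 (0.823), the interleukin-6 receptor Il6r (0.801) and the integrin Itgax (0.8). Without Vehicle 1 these values ran from 0.689 for Il6r with Cxcr2 to 0.954 for Cxcl2 with Cxcl3.

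The rest of the pathway was followed in 10 lists of 105 genes, of which 101 are in the table and 88 were tested. In Vehicle against Normal Control 65 were higher, 7 lower and 16 not called by edgeR, with a median log2 fold change of 1.03 beside -0.01 for all genes tested. Of all genes tested 26.9% were higher and 27.1% lower, and each list's count below stands beside those shares. The lists were chosen with earlier results of these data known, so their counts are a description and no enrichment is read from them. In SKF against Vehicle 0 of the 88 were called, with 70 negative values and a median of -0.17 beside 0.001 for all genes. In SKF against Normal Control 61 were higher and 9 lower, beside 25.5% and 24.7% of all genes. Adjusted p-values in the next paragraphs are from edgeR over all genes tested, and fold changes are log2 ± SE of Vehicle over Normal Control unless SKF is named. Some genes averaged under the floor of 0.288 CPM in Normal Control, so their fold changes depend on the small count added. For these the lowest value among the alternative fits is given as lowest fit.

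Of the other ligands, Cxcl6, which also carries the ELR motif and binds Cxcr2, rose by 6.62 ± 0.78 (adjusted p = 7.05e-08, lowest fit 2.40), and by 8.24 without Normal Control 8. It averaged 3.48 ± 2.29 CPM (SD, n = 8) in Vehicle and 0.0247 ± 0.0698 in Normal Control. Pf4, a platelet ligand without the motif, rose by 3.08 ± 0.33 (adjusted p = 1.15e-08), and Ppbp, at 0 CPM in all 3 groups, was not tested. Among 6 tested ligands of other receptors 4 rose and 1 fell (median 1.45). Cxcl13, which draws B cells, rose by 4.45 ± 0.68 (lowest fit 1.91), and Cxcl16, a membrane-bound ligand of Cxcr6, by 2.28 ± 0.19. Cxcl12, which holds cells in place through Cxcr4, fell by 1.22 on the log2 scale (adjusted p = 2.4e-07). Of 5 tested genes for other receptors and scavengers of chemokines 3 rose and 1 fell. Cxcr4, the receptor of Cxcl12, rose by 1.58 ± 0.19, the scavenger Ackr2 rose by 0.93 ± 0.21 and the scavenger Ackr3 fell by 0.45. With limma on TPM Ackr3 was not called (adjusted p = 0.0798). In SKF against Vehicle Cxcl6 had -0.73 ± 0.42, Cxcl13 -1.16 ± 0.46 and the scavenger Ackr1 0.13 ± 0.11 (adjusted p = 0.937, 0.923 and 0.961).

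The ligand cluster lies on chromosome 14 in the RefSeq assembly, in the order Cxcl2, Cxcl1, Cxcl3, Pf4, Ppbp and Cxcl6, with genes of other names between some of them. Each tested gene of the cluster was called higher in Vehicle, beside 26.9% of all genes tested, while Ppbp had 0 CPM in every group. The tested genes include Cxcl1, Cxcl2 and Cxcl3, which were chosen on this contrast, so nothing is read from that count. Of the flanking genes that were tested, Mthfd2l, a folate enzyme, rose by 0.76 (adjusted p = 0.00215) and Rassf6 had -0.60 (adjusted p = 0.174). Cxcr2 and Cxcr1 lie next to each other on chromosome 9. Of their tested neighbours Tns1 had -0.03, Arpc2 0.12 and Aamp -0.04, and none was called by edgeR (adjusted p = 0.777, 0.119 and 0.589).

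Most tested genes in the list of inducing cytokines and receptors were also higher in Vehicle, and Il1a, Il17a and Il17f were not tested. Of 12 tested inducing cytokines and receptors 11 rose and 0 fell (median 1.85), and in SKF against Vehicle all 12 had negative values, 0 of them called (median -0.29). Il1b, the cytokine interleukin-1 beta, rose by 6.04 ± 0.89 (adjusted p = 5.6e-06, lowest fit 3.41), and by 4.70 without Vehicle 1. Vehicle 1 had 91.0 CPM of Il1b and the other Vehicle libraries from 2.92 to 13.5, so the highest Cxcl2 and the highest Il1b came from the same library. A link between them was not tested. For Il6 the rise was 4.89 ± 0.50 (5.99 with Normal Control 2 left out, lowest fit 1.74). In SKF the smallest p-values of the list belonged to Tlr2, a receptor of microbial and damage signals (-0.42 ± 0.12, adjusted p = 0.719), and Il1r1 (-0.36 ± 0.12, adjusted p = 0.819).

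All 14 tested transcription factors and NF-kB inhibitors rose in Vehicle (median 1.29). Atf3, a stress-induced factor, rose by 4.43 ± 0.21 and Cebpd, an acute-phase factor, by 3.22 ± 0.18. In SKF against Vehicle 13 of 14 values were negative and 0 were called, with Cebpb at -0.41 ± 0.17 and the NF-kB subunit Nfkb1 at -0.14 ± 0.06 (adjusted p = 0.937 each). Of 7 mRNA decay factors 6 rose and 0 fell (median 0.51). Zfp36 rose by 2.76 ± 0.19 and the ribonuclease Zc3h12a by 2.34 ± 0.19. Zfp36l2 had -0.30 ± 0.08 in SKF against Vehicle (adjusted p = 0.656).

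Downstream of the receptors, 13 of 19 tested signalling genes rose and 1 fell (median 0.62). The Src family kinase Fgr rose by 3.26 ± 0.15, and the G protein subunit Gnb1 fell by 0.26. The desensitization list was split, with 2 of 10 higher, 2 lower and a median of -0.04. Its higher members, Rgs1 (2.97 ± 0.43, lowest fit 1.86) and Rgs18 (2.40 ± 0.54, lowest fit 1.36), speed the turn-off of G proteins in blood cells. Its lower members were Rgs14, which fell by 0.57, and the receptor kinase Grk2, which fell by 0.28. In SKF against Vehicle Fgr had -0.36 ± 0.13, Rac2 -0.20 ± 0.12, Grk6 -0.11 ± 0.06 and Rgs18 -0.55 ± 0.44 (adjusted p = 0.889, 0.937, 0.937 and 0.960).

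Of 10 genes listed for other attractant receptors and growth signals 4 were tested, and 3 rose (median 1.57). Fpr1, Fpr2, Ltb4r, C5ar1, Csf3 and Csf2 were not tested. The only attractant receptor among the 4 was Ptafr (0.52 ± 0.10), and the others were receptors of growth factors. Csf2rb, the shared beta chain of the granulocyte-macrophage growth factor receptor, rose by 5.29 ± 0.14, with the smallest adjusted p of all genes tested (6.68e-21). Csf3r, the receptor of the granulocyte growth factor, rose by 2.61 ± 0.16. Both were lower in the SKF mean without passing, Csf2rb at -0.38 ± 0.10 and Csf3r at -0.50 ± 0.14 (adjusted p = 0.656 each). In the adhesion list 7 of 9 rose and 2 fell (median 2.49). Selp, the selectin of platelets and endothelium, rose by 3.74 ± 0.31 (lowest fit 1.66). The members that fell were Selplg, the selectin ligand that resting microglia also express, by 1.17, and Vcam1, an endothelial integrin ligand, by 0.50. All 9 adhesion genes had negative values in SKF against Vehicle and 0 were called, with Selplg at -0.37 ± 0.15 (adjusted p = 0.937).

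**Figure D4:**
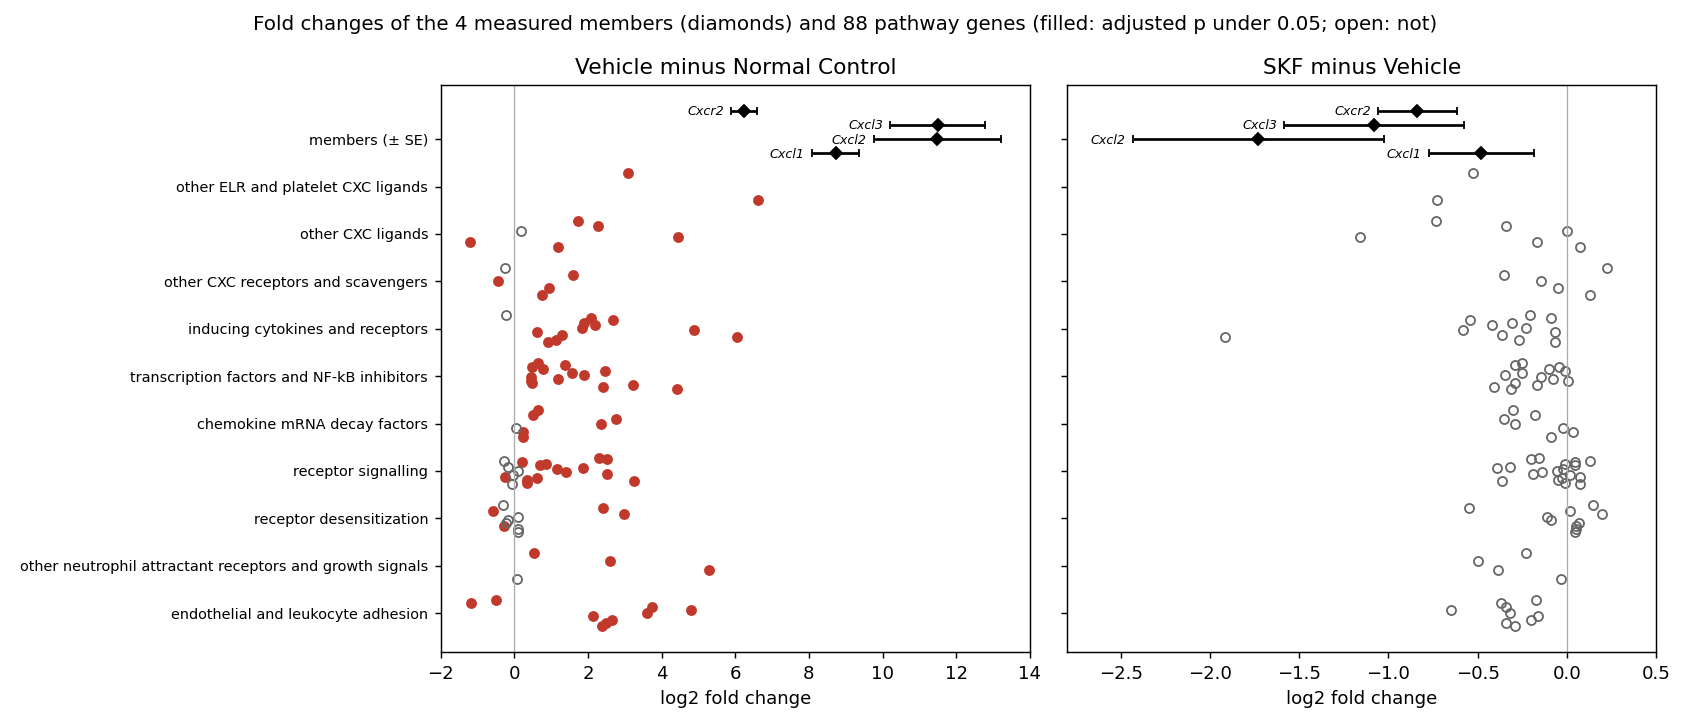
Log2 fold changes of Vehicle over Normal Control (left) and of SKF over Vehicle (right, on its own scale). Diamonds are the 4 tested members with ± SE, circles the 88 tested pathway genes by list, filled where the edgeR adjusted p is under 0.05. On the left 72 circles are filled, 65 of them to the right of 0, and on the right 0 are filled, with 70 of 88 left of 0.

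Across the whole table, total counts ran from 8911339 to 12383368 per library. The first principal component, with 54.3% of the variance, separated Normal Control from the other libraries. Normal Control 6 stood apart on the second component (-61.0, 7.19% of the variance), and 1 Normal Control library had 1964 CPM of summed skeletal muscle markers. Without Normal Control 4 and Normal Control 6 together, 76 pathway genes were called in Vehicle against Normal Control and 0 in SKF against Vehicle.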

How the data were processed

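Poly(A)-selected RNA of 24 rat brain samples was sequenced with a directional kit, per the labels' protocols. The authors deposited whole-number counts per gene and, for the same genes, TPM (columns sum to 1e+06), with build mRatBN7.2 per the submitters' processing notes. No source used here gives the aligner, the counter, its strand setting or how reads matching several genes were treated.

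Groups came from the sample titles. Counts were tested with edgeR 4.0.16 (R 4.3.3; TMM, filterByExpr by group, quasi-likelihood test with robust dispersion). A single fit held all 24 libraries and left 21 residual degrees of freedom. The Benjamini-Hochberg adjustment ran over 14421 genes, and adjusted p under 0.05 is called. The biological coefficient of variation was 16.2%. CPM used TMM-scaled library sizes, and log2 CPM a prior count of 2. No 2 libraries of a group held identical values.

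The members and gene lists were chosen with earlier results of these data known, and the promoter motifs after the sequences were seen. Named genes are the members, the 2 largest rises and 2 largest falls per list in Vehicle against Normal Control, the 2 smallest p per list in SKF against Vehicle, and the 5 most alike genes per member. A few genes that the rule names are not reported here. S100a9, Ptafr, the cluster's neighbours and Il1b in single libraries were added after their values were seen. Alternatives were DESeq2 1.42.0, RLE factors, other filters (none, or CPM 1 in 8 libraries), only the 2 groups compared, limma 3.58.1 voom, limma on log2 TPM (pseudocounts 1 and 0.1, TPM 0.5 in 8 libraries, or no filter), a replicate block, and each library left out. Correlations and figures used Matplotlib 3.10.9, SciPy 1.17.1, pandas 2.3.3 and NumPy 2.4.6 under Python 3.11.15.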

Additional observations from a re-analysis of the deposited data

Results flagged for a closer look

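Of 23 groups of 8 values examined for a single library far from the rest, 5 held one. The cutoff lets through about 1 in 20 groups of independent values with a normal spread. Many of these values are skewed or near 0, and the ligand shares follow from the ligand levels. No excess over that rate is therefore read from the count. Vehicle 1 had 152.9 CPM of Cxcl2, and the next highest Vehicle library had 32.2. In the same library Cxcl3 supplied 24.97% of the 3 ligands, the lowest share in Vehicle, where the next was 36.4%. SKF 3 had 13.4 CPM of Cxcl1, and the next highest SKF library had 7.29. Vehicle 3 had 0.781 CPM of Cxcr1 (9 counts), and the next had 0.359. Normal Control 5 had 0.0926 CPM of Cxcl1, which is 1 count, and the other 7 Normal Control libraries had 0.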

How the results depend on the processing

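In SKF against Vehicle 0 genes were called by edgeR, 6 by DESeq2 (1 higher, 5 lower) and 0 under each of the other alternatives, with 0 pathway genes in all of them; the cause of the DESeq2 difference was not tested. Leaving out each library in turn gave 7447 to 7845 genes and 71 to 75 pathway genes in Vehicle against Normal Control, 6885 to 7331 and 69 to 72 in SKF against Normal Control, and 0 in SKF against Vehicle. The other alternatives gave 7364 to 8001 genes and 66 to 81 pathway genes in Vehicle against Normal Control. On log2(TPM + 1), whose median gene stood at 0.11, the split of that comparison was 5476 higher and 2408 lower, against 3879 and 3904 on counts, and 4996 and 2296 in SKF against Normal Control. The replicate block gave 7434, 0 and 6830 genes in the 3 comparisons. Same-numbered libraries did not deviate together (0 of 8 pairs over 0.1 for each pair of groups, r from -0.241 to 0.078, 0 libraries closest to their own number). No pairing by number was seen, though a small shared effect might not show here. Members' fold changes kept their sign in all 46 values per comparison from these alternatives. By more than 1 SD, 16 of 46 moved in Vehicle against Normal Control, 18 of 46 in SKF against Normal Control and 0 of 46 in SKF against Vehicle. The lowest in Vehicle against Normal Control, on log2(TPM + 1), were 4.51 for Cxcl1, 5.46 for Cxcl2, 5.47 for Cxcl3 and 2.63 for Cxcr2, since the added 1 TPM shrinks folds of low genes. Of 941 values of the 27 pathway genes that the rule named for Vehicle against Normal Control, 4 lost the call (Ackr3 in 3 fits on TPM and Grk2 in 1) and 0 reversed. Depth limits the members in Normal Control, where no library had more than 3 counts of Cxcr2 or 17 of Cxcr1.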
